A study of Mus musculus with 2 samples.

Results

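Within the macroH2A1 map of mouse embryonic stem cells, the regions described here are the peaks that lie wholly inside a gene with a symbol. They were taken as the rows of the deposited peak list whose position class is inside and whose symbol field is filled, which gave 349 of 2560 peaks (13.6%, 95% Wilson interval 12.4 to 15.0%), in 320 host genes. These are 348 distinct regions, because the peak of Nt5e is listed under a second peak name. The cells are E14, an established embryonic stem cell line, untreated and grown in medium with serum and leukemia inhibitory factor. Chromatin was immunoprecipitated and sequenced (ChIP-seq) from 1 library with an antibody raised against a fragment of mouse macroH2A1, beside 1 library with IgG of no specific target. The list holds peaks of the macroH2A1 library, with neither read counts nor scores, so the depth behind a peak is unknown. There are no replicates: intervals below cover counting of peaks or genes only, none of the comparisons was tested, and positions are in mm9 as deposited. The submitters' class was checked against the coordinates and all 349 peaks lie between the start and end of their gene.

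MacroH2A1 is a form of histone H2A that carries a large globular macrodomain beyond the histone part. It is known for its enrichment on the inactive X chromosome and over broad stretches of repressed chromatin, and it is also found in the bodies of some transcribed genes. Its level rises as stem cells differentiate. A gene body holds exons and, over most of the length of long genes, introns; which of these a peak covered was not analysed here, and neither was the sequence under the peaks.

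For a view of promoter sequence of such hosts, the 3 hosts with the shortest gap between deposited gene start and peak are shown. They were taken among those with an entry in the RefSeq promoter table and a deposited length within 5% of the RefSeq length. Each line gives the 250 bases before the start used in that promoter table (GRCm38.p6), 5′ to 3′ on the strand of the gene. CG dinucleotides, the sites of DNA methylation, are in capitals. Those of Tbx4 lie at chr11:85896515-85896764, those of Ptprr at chr10:116018113-116018362 and those of Lad1 at chr1:135818348-135818597, all on the plus strand.
Tbx4: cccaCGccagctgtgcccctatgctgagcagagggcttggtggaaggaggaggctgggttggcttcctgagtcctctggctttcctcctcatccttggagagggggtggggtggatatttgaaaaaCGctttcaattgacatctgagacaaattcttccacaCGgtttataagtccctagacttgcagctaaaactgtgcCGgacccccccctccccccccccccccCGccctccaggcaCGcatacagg
Ptprr: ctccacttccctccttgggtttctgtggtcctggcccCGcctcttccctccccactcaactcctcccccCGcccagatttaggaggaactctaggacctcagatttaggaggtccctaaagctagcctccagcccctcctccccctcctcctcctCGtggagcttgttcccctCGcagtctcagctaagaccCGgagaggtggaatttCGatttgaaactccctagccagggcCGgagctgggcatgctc
Lad1: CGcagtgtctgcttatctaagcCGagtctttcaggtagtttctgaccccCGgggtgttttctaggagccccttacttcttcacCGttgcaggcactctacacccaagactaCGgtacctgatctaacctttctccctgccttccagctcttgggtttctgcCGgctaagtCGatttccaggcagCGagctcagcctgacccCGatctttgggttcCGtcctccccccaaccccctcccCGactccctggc
The stretches hold 6, 7 and 11 CG dinucleotides, against a median of 10.0 over 17274 RefSeq protein-coding genes with an entry. In the deposited list the peaks begin 526, 545 and 642 bp after the deposited mm9 start of these genes. Lengths were matched between the builds, but starts were not. Where the bases shown lie relative to the deposited start and the peak is therefore not known. Tbx4 is a T-box transcription factor of hindlimb and lung development, Ptprr a receptor-type tyrosine phosphatase, and Lad1 encodes ladinin, a protein of basement membranes. An entry was found for 237 of 320 hosts (74.1%), a share too small for a comparison of promoter composition over the hosts, which is therefore void.

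The peaks inside genes lay more often towards the start of the host than towards its end. Measured at the peak midpoint, with 0% at the gene start and 100% at the gene end, the median position was 34.2% (95% order-statistic interval 30.2 to 39.9%, interquartile range 16.0 to 55.5%). The first 50% of the gene held 241 of 349 peaks (69.1%, 64.0 to 73.7%). Counts by segments of 10% of gene length were 54 and 52 in the first and second segments, between 41 and 47 in each of the next 3, 35 in the sixth, 18 and 27 in the following 2, and 14 in each of the last 2. Thus 106 peaks (30.4%) fell in the first 20% of the gene and 28 (8.02%) in the last 20%. The fall towards the gene end was present in each class of host length. In hosts of up to 50 kb the first 50% held 85 of 130 peaks (65.4%, 56.9 to 73.0%), in hosts of 50 to 200 kb 78 of 117 (66.7%, 57.7 to 74.6%), and in hosts over 200 kb 78 of 102 (76.5%, 67.4 to 83.6%), with median positions of 40.8, 31.7 and 31.4%. The intervals of these classes overlap. The 15 peaks inside genes without a symbol had a median position of 37.3% (13.6 to 49.1%). In the 237 hosts with a deposited length within 5% of the RefSeq length, the first 50% held 172 of 257 peaks (66.9%, 61.0 to 72.4%).

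**Figure D1:**
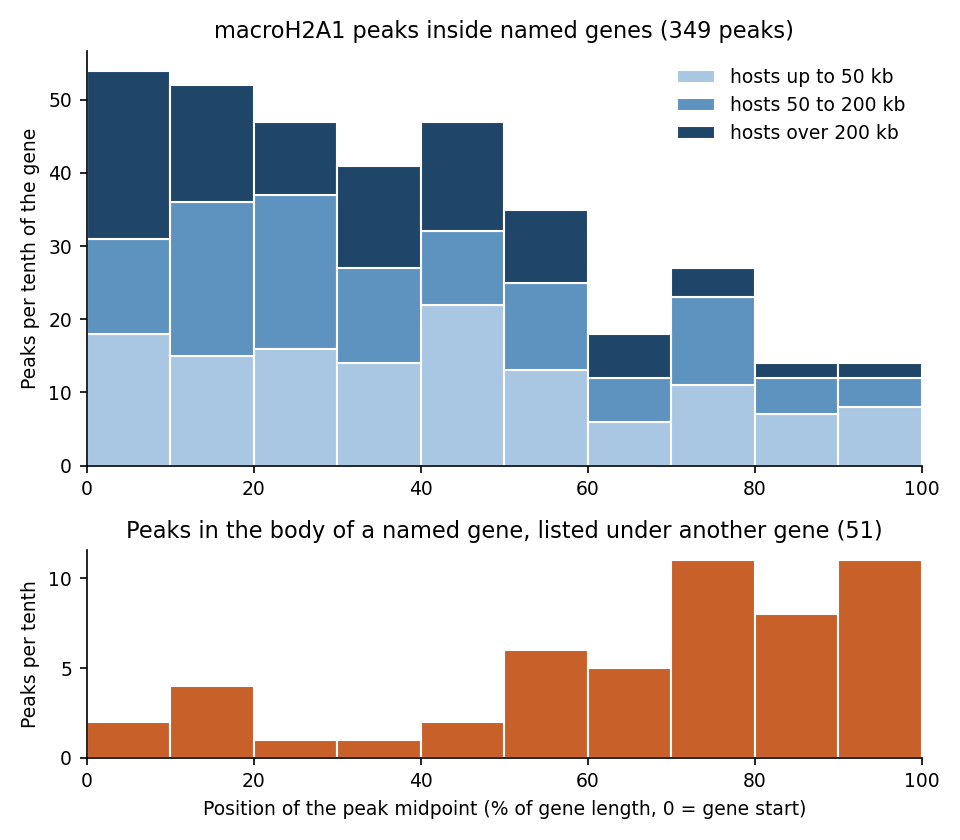
Number of peaks (vertical axis) in each 10% segment of gene length (horizontal axis, position of the peak midpoint in % from the gene start). The upper panel shows the 349 peaks inside named genes, stacked by host length, falling from 54 in the first segment to 14 in the last. The lower panel shows 51 peaks that lie in the body of a named gene but are listed under another gene, most of them beyond 50% of the gene.

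The way the list was made bears on these positions. The submitters' list pairs a peak with whichever gene starts closest to it, so a peak deep in a gene can be listed under a neighbour or under a gene nested in the larger one. Among the 2211 other rows, 51 (2.31%, 1.76 to 3.02%) lay wholly in the body of a named gene of the list that was not their assigned gene, and 34 of the 51 were assigned to a gene without a symbol. Their median position in the gene that holds them was 75.0% (65.8 to 81.5%), and 10 of 51 (19.6%) lay in its first 50%. With these peaks added, the first 50% held 62.7% of 400 peaks (57.9 to 67.3%) and the median position was 39.4%. The search covered only genes that appear in the list, so peaks in the bodies of other genes are not counted. How much of the remaining difference between start and end comes from the assignment was not tested.

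In distance, the peaks began at a median of 20.4 kb (16.7 to 25.1 kb) after the gene start and ended at a median of 45.2 kb (35.2 to 53.7 kb) before its end. At the host start, 13 peaks (3.72%, 2.19 to 6.27%) began within 1 kb. At the host end, 10 (2.87%, 1.56 to 5.19%) stopped within 1 kb of it. Within 5 kb the counts were 72 (20.6%, 16.7 to 25.2%) at the start and 37 (10.6%, 7.79 to 14.3%) at the end. The peak closest to a start was that of Dnahc10, an axonemal dynein heavy chain gene, which begins 265 bp after it (chromosome 5, 125282100 to 125283800). The deposited model of Dnahc10 spans 30.1% of its RefSeq length, so this start may not be that of the full gene. Next was Wnt8a, a Wnt ligand of early axis and mesoderm formation, with a gap of 383 bp (chromosome 18, 34702350 to 34704500), followed by Tbx4 at 526 bp, Ptprr at 545 bp and the predicted gene mCG_21548 at 587 bp. At the other boundary, the peak of Gabrd, the delta subunit of the GABA-A receptor, ended 11 bp before the gene end (chromosome 4, 154759100 to 154761300). The gap to the end was 198 bp for the neuropeptide FF receptor gene Npffr1, 241 bp for Csf1r, the receptor of macrophage growth factor, 485 bp for the lipoxygenase gene Alox12e and 619 bp for Hes3, which encodes a basic helix-loop-helix repressor. Just outside the class were 14 peaks that overlap the start of a named gene and 11 that overlap its end. Among those reaching least beyond the gene were BC051076 (76 bp past the end), the chemokine gene Cxcl11 (110 bp before the start) and the hedgehog ligand gene Shh (155 bp past the end).

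Hosts were long genes. The median length of the 320 hosts was 82.3 kb (64.8 to 95.9 kb, range 4.74 to 1642 kb), against 22.8 kb (20.2 to 26.7 kb) for the 1124 named genes of all other rows and 17.3 kb for 21631 RefSeq protein-coding genes. A length over 100 kb was found for 138 hosts (43.1%, 37.8 to 48.6%), 219 genes of the other rows (19.5%, 17.3 to 21.9%) and 2427 RefSeq genes (11.2%). Over 500 kb the shares were 7.19%, 2.05% and 1.05%. A gene must be longer than the peak to hold it, and a long gene offers more room, so this difference follows in part from the rule and is given as a description. The longest host by deposited length was Csmd1, a large transmembrane protein gene of the nervous system (1642 kb), whose peak lay 5.12 kb from the start, at 0.358% of the gene. It was followed by the presynaptic adhesion gene Nrxn3 (1611 kb, peak at 2.53%), the neuronal adhesion gene Opcml (1134 kb, 3 peaks from 46.1 to 66.7%), Auts2, a neurodevelopmental nuclear factor gene (1104 kb, peak at 1.42%), and Cntnap5a (897 kb, 22.6%). Nell1, Fhit, Pcdh15, Cacna2d3 and Ptprn2 completed the 10 longest deposited models, at 888, 848, 824, 817 and 791 kb. This order holds for deposited lengths only: the models of Fhit and Pcdh15 have 52.6 and 53.1% of their RefSeq length, and A2bp1, Odz3, Cntn5 and Anks1b reach 1528, 1297, 1271 and 1100 kb in RefSeq. Of 316 matched hosts, 16 (5.06%, 3.14 to 8.07%) had under 50% of the RefSeq length, among them Npffr1 (27.3%), Smarcd3 (29.5%) and Smarcal1 (49.8%), and positions in them are those in the deposited model. Other deposited models exceeded the RefSeq length, among them those of Fgf6 (137%), Fkbp5 (136%) and Dnahc7b (123%), with the same limit on positions. Of the 10 longest models, Opcml was the only one with an inside peak beyond 50% of its length. Csmd1, however, has a further peak at 76.3% that is listed under another gene. The shortest hosts were the chemokine gene Ccl5 (4.74 kb), the eye and pituitary homeobox gene Six6 (4.96 kb), Enpp7 (5.04 kb), Hes3 (5.69 kb) and the lens crystallin gene Crybb3 (5.75 kb). In Ccl5 the peak covered 1801 bp in the middle of the gene, at 47.9%.

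**Figure D2:**
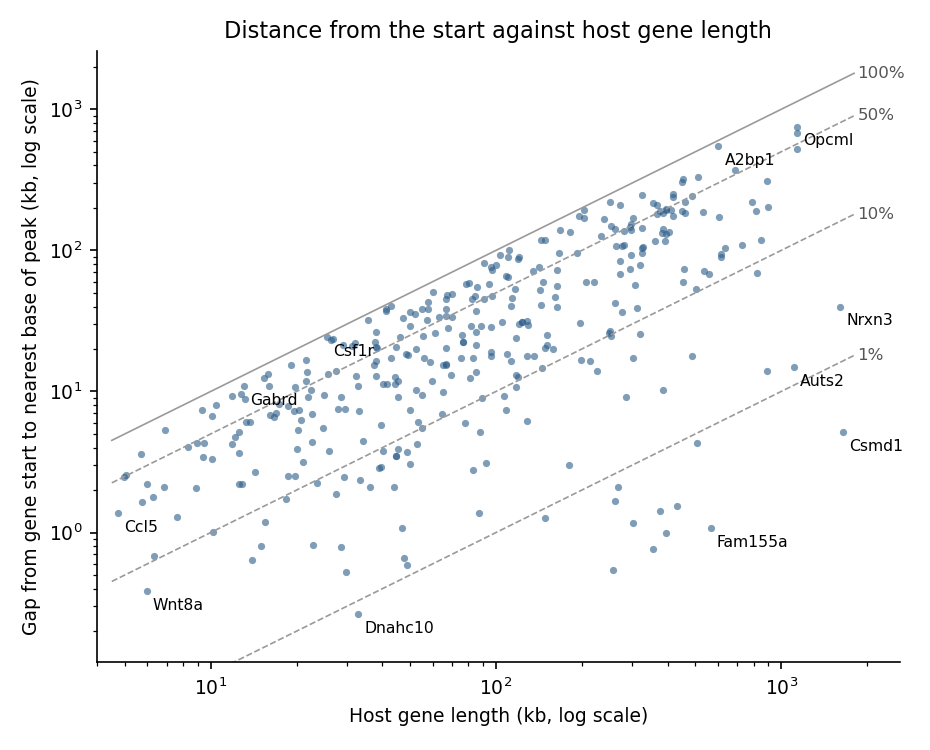
Bases between gene start and peak (kb, log scale) against host gene length (kb, log scale) for the 349 peaks, 1 point per listed peak. Grey lines mark gaps of 1, 10, 50 and 100% of gene length. Most points lie between 10 and 100% of gene length, and a small number of hosts over 200 kb, such as Csmd1 and Fam155a, have peaks at under 1%.

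Across the peaks, the gap from the start rose with host length (Spearman's rho = 0.70 over 349 peaks, which share 1 library). An inside peak cannot lie farther from the start than the gene is long, so this rise follows in part from the rule. Relative position fell slightly with host length (rho = -0.19). Both values leave out the 51 peaks listed under another gene, which lay in long genes and mostly beyond 50% of them. In several very long hosts, named here after their values were seen, the listed inside peak sat close to the start: Fam155a (565 kb) at 1.07 kb, Thrb, a thyroid hormone receptor gene (377 kb), at 1.43 kb, Tox (303 kb) at 1.17 kb, Cdh23, an adhesion gene of hair cells (394 kb), at 0.988 kb, and Btbd9 (356 kb) at 0.760 kb. A later peak, listed under another gene, lies at 94.0% of Fam155a, 64.7% of Tox and 69.3% of Cdh23. Others lay far inside, as in A2bp1, a splicing regulator gene also called Rbfox1 (91.0% of a deposited model of 602 kb, 39.4% of the RefSeq length), Meis2 (95.4% of 203 kb) and the phospholipase gene Pld1 (90.2% of 195 kb).

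Most hosts were listed with a single inside peak, and 21 with 2 or more distinct regions. With the 23 further peaks that lie in the bodies of 20 hosts but are listed under other genes, 40 hosts held 2 or more. Elfn1, which encodes a postsynaptic leucine-rich repeat protein, held 5 within 31.7 kb of its 66.8 kb, at 24.3, 31.7, 53.0, 59.1 and 69.4% of the gene (chromosome 5, from 140399550 to 140431250). Their widths were 1201, 1901, 2101, 1951 and 2051 bp, and the gaps between neighbours ran from 2.05 to 12.2 kb. Tbx5, the T-box factor of heart and forelimb, held 3 at 7.74, 59.6 and 75.2% of its deposited 49.8 kb, which is 56.1% of the RefSeq length, and the list gives it 1 further peak upstream and 1 downstream. Anks1b, a postsynaptic scaffold gene, held 3 between 33.6 and 50.2% of a deposited model with 35.9% of the RefSeq length, of which 2 were 4.20 kb apart. Grin2a, an NMDA receptor subunit gene, held 3 between 41.9 and 60.3% of 417 kb, with gaps of 9.20 and 65.0 kb. The 3 of Opcml were spread more widely, with gaps of 70.2 and 159 kb.

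The other 16 of these hosts held 2 distinct regions each. Close pairs were those of Fgf6, a muscle-associated fibroblast growth factor gene (gap of 1.5 kb, at 23.2 and 48.0% of 12.6 kb), Vwde (1.70 kb), the teneurin gene Odz3 (2.00 kb, in a deposited model of 616 kb, 47.5% of the RefSeq length), Gpr139, an orphan receptor gene of the brain (6.45 kb), and Fkbp5, a chaperone of the glucocorticoid receptor (9.15 kb). The deposited models of Fgf6 and Fkbp5 have 137 and 136% of their RefSeq length. Whether their peaks lie inside the RefSeq genes was not analysed. Of the 21 hosts, 9 had a smallest gap under 10 kb. Distant pairs were those of Nell1 (295 kb), Mapk10, a neuronal stress kinase gene (150 kb), Rnls (124 kb), Zfp536 (113 kb) and Ntrk2, the receptor of brain-derived neurotrophic factor (101 kb). Pax3, a neural crest and muscle precursor factor, had its 2 peaks at 20.8 and 79.9% of the gene, and Crhr2, a stress hormone receptor gene, at 42.7 and 95.9%. Peaks were also given to 35 hosts from outside the gene, 54 rows in all, led by Sez6l with 5 upstream of it beside its 1 inside peak. Eln and Ttc29 had 3 upstream, and Ttll7 had 3 downstream.

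**Figure D3:**
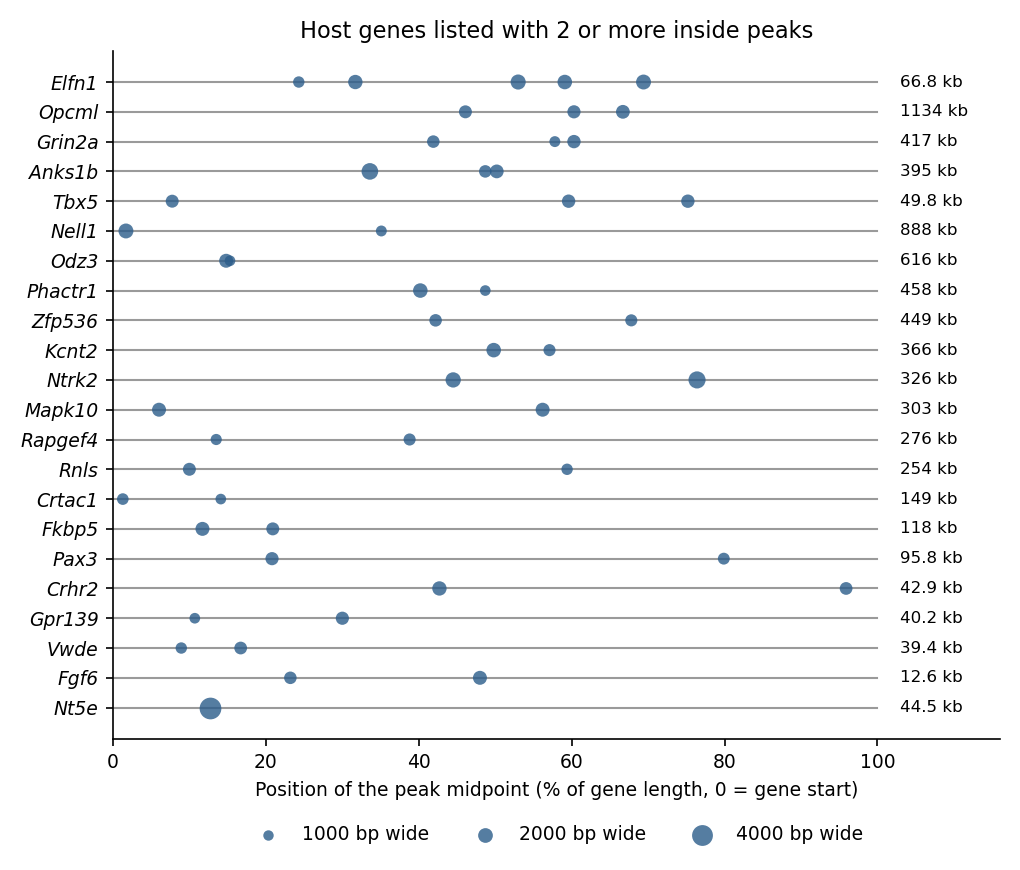
Positions of peak midpoints along the 22 host genes listed with 2 or more inside peaks (horizontal axis, % of gene length from the gene start). Each line is a gene with its deposited length at the right, each dot a distinct region, and the dot area is in proportion to peak width. Elfn1 has 5 dots, 4 genes have 3, and Nt5e has 1 wide region that is listed again.

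Taking all distinct regions, 61 of 348 inside peaks (17.5%, 13.9 to 21.9%) had another region of the list within 50 kb, against 474 of 2210 others (21.4%, 19.8 to 23.2%). The median gap to the nearest other region was 224 kb (192 to 259 kb) and 225 kb (206 to 245 kb). Neither measure set the inside peaks apart beyond the overlap of the intervals.

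Peaks inside genes differed little in width from the rest. The median width was 1551 bp in both classes (intervals 1501 to 1551 bp for 349 peaks and 1551 to 1601 bp for 2211), and 12.9% of inside peaks (9.78 to 16.8%) and 15.5% of others (14.1 to 17.1%) exceeded 2000 bp. Peaks upstream and downstream of named genes had medians of 1601 bp each, 1 coordinate step of 50 bp above. Spearman's rho of width was -0.03 with host length and 0.07 with relative position, over 349 peaks of 1 library. The widest inside peak was that of Nt5e, which makes extracellular adenosine (4351 bp, 12.7% of the gene, chromosome 9, 88225950 to 88230300). Next came Myo18b, an unconventional myosin gene of muscle (3651 bp, chromosome 5, 113273300 to 113276950), in a deposited model of 26.6% of the RefSeq length. BC021785 (2851 bp), Meis2, a TALE homeobox gene (2801 bp), Ntrk2 (2701 bp), Atp2c2, a Golgi calcium and manganese pump gene (2651 bp), Pld1 (2651 bp), and Anks1b (2551 bp) followed. At 2501 bp came the channel genes Kcnk9 and Tmc2 and the dehydrogenase-family gene Sdr9c7.

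The chromosomes of inside peaks resembled those of the other peaks, and the intervals of the classes overlapped on all 20 chromosomes. Chromosome 5 held most, 40 of 349 (11.5%, 8.53 to 15.2%) in 33 hosts, against 9.50% of other rows (8.35 to 10.8%). Chromosome 1 held 34 (9.74%, 7.06 to 13.3%, against 6.29%, 5.35 to 7.38%) and chromosome 7 held 23 (6.59%, 4.43 to 9.69%, against 3.84%, 3.12 to 4.73%). Chromosome 18 held 5 (1.43%, 0.613 to 3.31%, against 3.44%, 2.76 to 4.28%), in Wnt8a, Csf1r, Dsg4, Kctd16 and Mcc. Chromosome X held 4 inside peaks of its 26, in Fgf13, Chm, Fam70a and Gdpd2. Hosts lay on both strands alike, with 177 peaks in plus-strand and 172 in minus-strand genes.

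**Figure D4:**
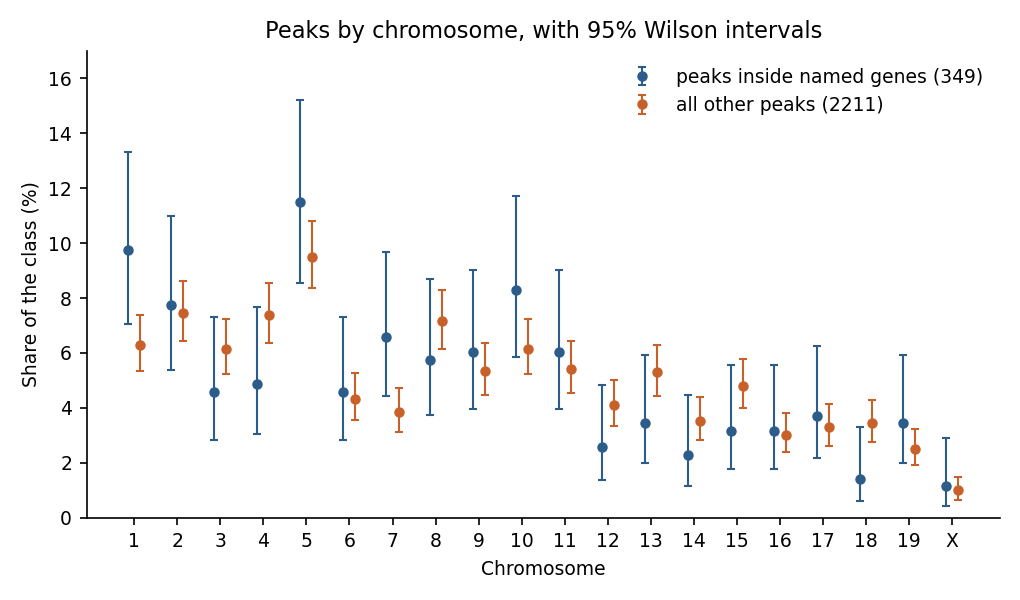
Share of the 349 inside peaks (blue) and of the 2211 other peaks (orange) on each chromosome, in % of the class, with 95% Wilson intervals as bars. The intervals overlap on every chromosome. Chromosomes where the inside share is above the other include 1 and 7, and those where it is below include 18.

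Host functions were described with 16 families defined by symbol patterns, into which 163 of 320 hosts fell. Shares of hosts are set beside shares of the 1089 other named genes that had peaks only outside their body, and of all RefSeq protein-coding genes. The patterns were applied to deposited symbols for genes of the list and to GRCm38.p6 symbols for RefSeq genes. Gene length differs between families. The median RefSeq length is given for ion channels, adhesion and guidance genes, cytoskeleton and motor genes, and olfactory and vomeronasal receptors. The shares of the other families are given without it, and the part of gene length in the shares was not tested for any family.

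Among genes of the cell surface, ion channels made up 12 of 320 hosts (3.75%, 2.16 to 6.44%), against 1.19% of other genes with a peak (0.699 to 2.03%) and 1.01% of RefSeq genes. They were mostly potassium channel genes (Kcnh4, Kcnj16, Kcnk9, Kcnk10, Kcnt2, Kcnu1) and calcium channel subunit genes (Cacna1s, Cacna2d3, Cacng3), together with the sodium channel gene Scn11a, the cyclic nucleotide-gated channel gene Cnga3 and Tmc2. Of their 13 peaks, 11 lay in the first 50% of the gene, while peaks at 93.5% of Cnga3 and 91.1% of Scn11a are listed under other genes. Kcnk9, an imprinted potassium leak channel gene, had a peak of 2501 bp at 16.7% of a deposited model with 73.1% of the RefSeq length. Kcnt2 had 2 peaks at 49.8 and 57.1% of 366 kb. The median RefSeq length of the family was 45.3 kb. Neurotransmitter receptor genes were 7 hosts (2.19%, 1.06 to 4.45%, against 1.38% and 0.518%): Grin2a, Grik2, Grm3 and Grm4 for glutamate, Gabrd for GABA, Chrng for acetylcholine at embryonic muscle, and Adra1d for noradrenaline. Of their 9 peaks, 3 lay in the first 50% of the gene, and the median position was 53.7%. Grin2a alone held 3 of the 9, and no interval was computed for so few peaks.

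Cell adhesion and axon guidance genes were 15 hosts with 22 peaks (4.69%, 2.86 to 7.59%, against 2.48%, 1.71 to 3.58%, and 1.32%). Beside Csmd1, Nrxn3, Opcml, Elfn1, Odz3, Cntnap5a, Pcdh15 and Cdh23, they included the contactin gene Cntn5 (64.5% of a deposited model of 511 kb, 40.2% of the RefSeq length), the ephrin receptor gene Epha5 (32.7% of 360 kb), the guidance cues Slit1, Sema4a and Sema5a, the cadherin gene Cdh22 and the synaptic adhesion gene Sdk2. The family is long, with a RefSeq median of 88.0 kb, and these hosts were longer still, with a median over their peaks of 423 kb. Solute carriers and transport ATPases were 15 hosts (4.69%, 2.86 to 7.59%, against 2.39%, 1.63 to 3.48%, and 2.47%). Among them, the glial glutamate transporter gene Slc1a2 had a peak at 25.9% of 123 kb, the glycine transporter gene Slc6a5 at 13.0% of 53.1 kb and the plasma membrane calcium pump gene Atp2b2 at 49.9% of 296 kb. Extracellular matrix genes were 8 hosts (2.50%, 1.27 to 4.85%, against 1.19% and 0.892%), including Eln, the elastin gene (48.5% of 44.7 kb), the collagen genes Col11a2 and Col13a1, the laminin gene Lama2, Fras1 and Frem3.

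Cytoskeleton and motor genes were 17 hosts (5.31%, 3.34 to 8.34%, against 1.65%, 1.05 to 2.60%, and 1.82%). The dynein heavy chain genes Dnahc2, Dnahc7b, Dnahc8, Dnahc10 and Dnahc11, which drive cilia and flagella, accounted for 5 of them, with peaks at 14.4, 50.7, 11.1, 3.40 and 24.6% of the gene. The myosin genes Myh14, Myl1, Myo1f, Myo3b and Myo18b accounted for 5 more. Anks1b, described above as a postsynaptic scaffold gene, was also caught by its symbol and holds 3 of the 19 peaks. The family has a RefSeq median length of 24.4 kb and these hosts a median over their peaks of 130 kb. Kinases, phosphatases and second-messenger enzymes were 14 hosts (4.38%, 2.62 to 7.21%, against 2.85% and 2.24%), with the neurotrophin receptor genes Ntrk2 and Ntrk3 and the receptor phosphatase genes Ptprb, Ptprj, Ptprn2 and Ptprr. Flt1, a receptor of vascular growth factors, had a peak at 45.0% of 164 kb. Of the 16 peaks of this family, 12 lay in the first 50% of the gene, while peaks at 95.6% of Flt1 and 67.3% of Ptprb are listed under other genes. Small GTPase and G-protein signalling genes were 6 hosts (1.88%, against 1.93% and 2.00%), with all 7 of their peaks in the first 50%, 2 of them in Rapgef4.

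Transcription factors were 20 hosts with 24 peaks (6.25%, 4.08 to 9.46%), against 7.35% of other genes with a peak (5.94 to 9.05%) and 4.34% of RefSeq genes. Developmental regulators among them included Tbx4, Tbx5, Pax3, Pax7, Six6, Meis2, Zic4, Hes3, Onecut3, Foxp4, Zfhx4 and Prdm16, nuclear receptors included Esrrg, Nr2e1, Rora, Rxrg and Thrb, and the zinc finger genes Ikzf1 and Zfp536 were also hosts. Pax7, a muscle stem cell factor, had a peak of 2051 bp at 62.2% of 94.6 kb, and Six6 one of 1751 bp that covered from 2468 bp after the start to 736 bp before the end. Genes with symbols of secreted developmental signals were 4 hosts (1.25%, against 1.38% and 0.615%): Lefty2, a Nodal inhibitor, with a peak at 51.5% of 5.99 kb, Wnt8a, Fgf6 and Fgf13, the last of which acts inside the cell and was caught by its symbol. Chromatin regulators were 4 as well (1.25%, against 0.826% and 0.901%), namely Chd1, a remodeller of open chromatin in stem cells (16.4% of 65.1 kb), Baz2b, Smarcal1 and Smarcd3. All had peaks in the first 50% of the deposited model. That model has 72.9% of the RefSeq length for Baz2b, 49.8% for Smarcal1 and 29.5% for Smarcd3.

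The ubiquitin and chaperone family (7 hosts, 2.19%, against 2.30% and 2.64%), metabolic and glycosylation enzymes (6 hosts, 1.88%, against 2.11% and 2.12%) and immune genes (7 hosts, 2.19%, against 1.65% and 1.90%) had shares close to both backgrounds. Immune hosts were Ccl5, Cxcl12, Cd40, Cd82, Il20ra, Tnfrsf26 and H2-DMb2, all under 50 kb. Symbols of RIKEN clones or predicted Gm genes were 21 hosts (6.56%, 4.33 to 9.82%, against 10.4%, 8.70 to 12.3%, and 6.99%). The RefSeq share counts GRCm38.p6 symbols and the other shares count deposited symbols, so the RefSeq share is not a like measure. Olfactory and vomeronasal receptors were absent, 0 of 320 hosts, for which 3 counts of the total give an upper limit of 0.938% and the Wilson method 1.19%, against 23 of 1089 other genes with a peak (2.11%) and 6.85% of RefSeq genes. Their median RefSeq length is 0.951 kb, less than the narrowest peak of the list (1051 bp). The intervals of hosts and of other genes with a peak were apart for ion channels, cytoskeleton and motor genes, and olfactory and vomeronasal receptors, and overlapped for the other 13 families.

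**Figure D5:**
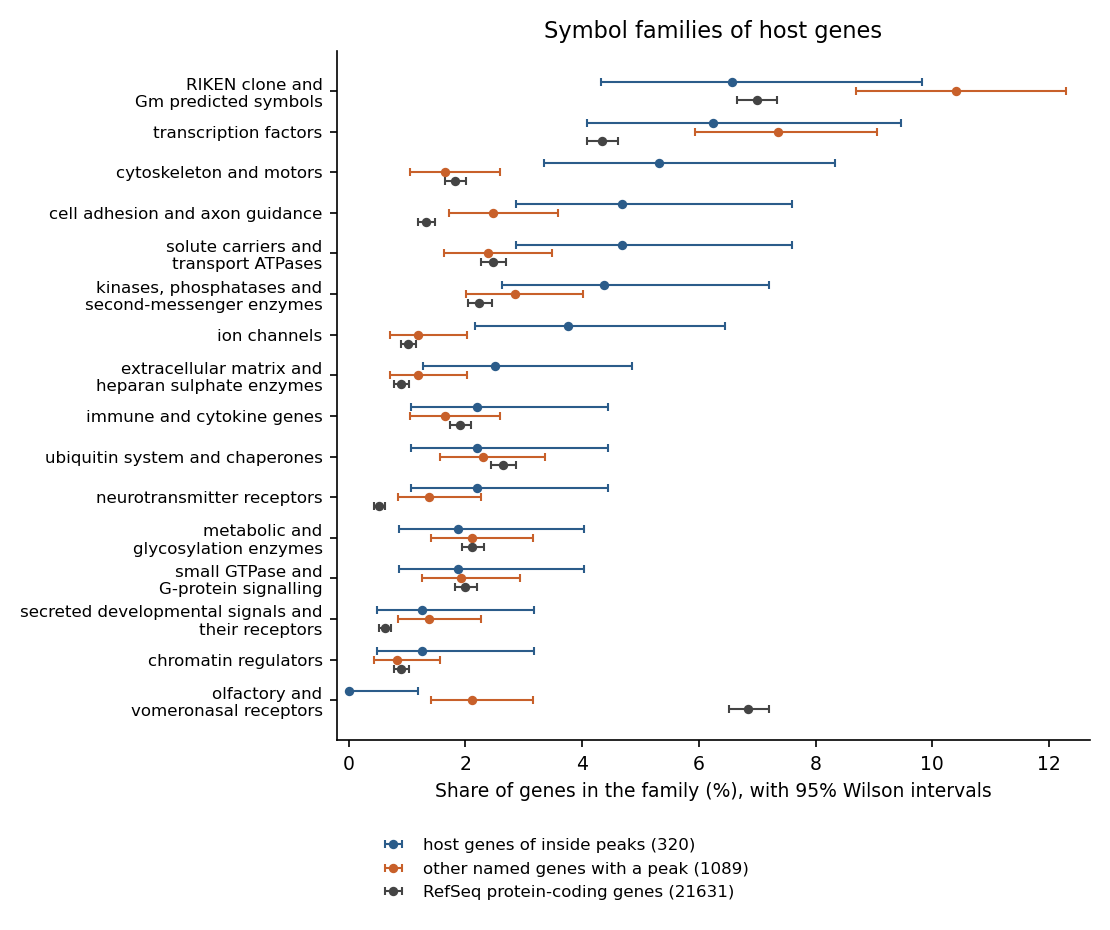
Share of genes in each of 16 symbol families (horizontal axis, %) among the 320 hosts of inside peaks (blue), the 1089 other named genes with a peak (orange) and 21631 RefSeq protein-coding genes (dark grey), with 95% Wilson intervals as bars. The host interval lies above both other intervals for ion channels (3.75%) and for cytoskeleton and motor genes (5.31%). In several other families the host share is above both others, but its interval overlaps that of the other named genes.

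Among the hosts that no family pattern caught, named here after their values were seen, were further regulators and neural genes. Trp73, a relative of p53, had a peak at 16.5% of 81.4 kb, and Myt1l, a neuronal identity factor, at 37.0% of 386 kb. Tshz2 had one at 39.3% of a deposited model of 280 kb, 63.6% of the RefSeq length. The basic helix-loop-helix gene Atoh8 had one at 11.5% of 29.4 kb. Hhip, which binds and restrains hedgehog ligands, had a peak 5.16 kb from its start. Numb, an asymmetrically inherited inhibitor of Notch, had a peak at 5.34% of 128 kb. Of the synaptic release genes, Rims1 had a peak at 13.3% of 536 kb, Unc13c at 13.3% of 454 kb and Sv2b at 50.1% of 193 kb. Kl, the Klotho gene of ageing and phosphate balance, had a peak at 92.4% of 41.1 kb.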

How the data were processed

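Reads of the macroH2A1 ChIP-seq library were mapped with Bowtie to mouse build mm9 (NCBIM37), as the submitters' processing notes name them. The names of peaks begin with CCAT, a peak caller, and the columns are those of ChIPpeakAnno with assignment to the nearest gene start, per the file headers. For caller settings, control and read filters, the sources used here give nothing. The deposited values are peak and gene coordinates and widths in bp. Host position was recomputed from them on the strand of the gene, at the peak midpoint, and checked on simulated peaks. Symbols were looked up, with synonyms and requiring an equal chromosome, in the RefSeq table of GRCm38.p6 (316 of 320 hosts), used for names, lengths and promoters only. Deposited and RefSeq lengths were within 5% for 237 of 316 hosts. A row whose symbol had turned into a date was counted and left unnamed. Where a row had several symbols (15 rows), the first was used. Intervals are 95% Wilson (shares) or binomial order-statistic (medians), computed with SciPy 1.17.1. No test was made, because peaks and genes of 1 library are not replicates. Named genes were hosts with 2 or more inside peaks, the 5 closest to each gene end, the 10 longest, 5 shortest and 10 widest, and family members; a few genes that this rule names are not reported here. Members, families and length classes were chosen with earlier results of these data known. The IgG library was not analysed here. Alternatives covered the point taken as position, partial overlaps, genes without a symbol, rows with several symbols and repeated regions. They also covered 1 peak per host (the one nearest to the gene start), wide peaks, long hosts, chromosome 5 and the comparison rows.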

Additional observations from a re-analysis of the deposited data

How the results depend on the processing

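Of 82 values under alternative settings, 72 lay within the interval of the reported value or, for counts, within 1.5 times of it. With only peaks wider than the list median, the number of inside peaks was 152, the share in the first 50% of the host 61.8%, the median position 40.2%, the median width 1801 bp and the number of hosts with 2 or more inside peaks 7. With only hosts longer than 50 kb, the median host length was 166 kb and the median distance from the start 47.0 kb, both by construction. With the peaks that lie in a named gene but are listed under another, an alternative chosen after seeing the data, the share in the first 50% was 62.7%, the median host length 101 kb and the number of hosts with 2 or more distinct regions 40. Every alternative kept more than 50% of peaks in the first 50% of the host, from 61.8 to 71.9%. All but the one with peaks listed under another gene keep the assignment to the nearest gene start, and that one searched only genes of the list. The range is therefore no check on the effect of the assignment. The highest value came from taking the peak edge nearest to the gene start, which moves every position towards the start by construction. The setting with 1 peak per host (71.6%) kept the peak nearest to the start. It therefore favours the start and is no support for the difference between start and end. The cause of the lower share among wider peaks was not tested. No paired analysis was possible because each antibody has 1 library. With library depth unknown, regions below the caller's threshold cannot be told from regions without macroH2A1.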

Other observations

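Several of the 51 peaks that lay in the body of a named gene but were listed under another gene fell in hosts already described, 23 of them in all. Csmd1 had such a peak at 76.3% of the gene, Cdh23 at 69.3%, Odz3 at 76.0%, Flt1 at 95.6% and Alpk1 at 75.0%, each further along than the inside peak of that gene. That of Alpk1 was listed under the proneural gene Neurog2. Sez6l and Dnahc7b had 2 each, listed under Gm6588 and Slc39a10.

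Other such peaks lay in genes that hold no inside peak of their own. The glutamate receptor gene Grm7 had a peak at 91.3% of 921 kb. Disc1, a scaffold gene of neuronal development, had 2, at 8.32 and 94.0%, and Thsd4, a matrix gene, had 2, at 14.4 and 40.8%. These values count only genes present in the list.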
